A study of Gallus gallus with 10 samples.

Results

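SCIN (ENSGALG00000010770) and ARPC1B (ENSGALG00000032588) encode proteins that reshape actin filaments, and they are described here in the preoptic anterior hypothalamus (PO/AH) of chicks. Both genes were chosen from the comparison of chicks given a miR-200a mimic with naïve chicks, since the study's supplementary gene tables list them among the genes higher after the mimic. They are 2 of 11324 genes in the deposited counts, and both passed the filter on low counts that left 8585 genes. Their levels in the 2 groups are therefore given as a description, without a test.

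The libraries were made by bulk MARS-seq, a method that tags each transcript near its 3′ end with a unique molecular identifier, so that molecules rather than reads are counted. The mimic group was 5 libraries of Cobb broiler chicks injected at 3 days of age with a synthetic copy of the human miR-200a-3p strand and taken 6 h later. The naïve group was 5 libraries of uninjected chicks of the same strain and age kept under control conditions. The injection was into the PO/AH by the labels and into the third ventricle by other text of the study. Because no library came from chicks given a control injection, the effects of the injection and of the mimic cannot be told apart. No source used here says if each library holds RNA of a single chick, so the spread between libraries may in part be technical. Each library keeps the number of its deposited column, with mimic libraries 2, 4, 6, 9 and 10 and naïve libraries 2, 3, 4, 6 and 7.

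Actin filaments grow, branch and are cut by separate sets of proteins. Scinderin, the product of SCIN, belongs to the gelsolin family, whose members sever filaments and cap their growing ends when calcium rises. ARPC1B is a subunit of the Arp2/3 complex, which starts new filaments as branches on the sides of existing ones. In humans ARPC1B is the form of its subunit that prevails in blood cells, and in the brain the Arp2/3 complex is known for its work in growth cones, dendritic spines and the moving processes of microglia.

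The UMI counts summed to 3598695 to 4511597 per mimic library (median 4162068) and to 2104121 to 5503185 per naïve library (median 5059334), with the lowest total in naïve library 7. Levels are CPM, counts divided by library size with TMM factors, and p-values come from edgeR's quasi-likelihood test with Benjamini-Hochberg adjustment over 8585 genes. Genes were called when the adjusted p was at most 0.05, the fold change at least 1.5 and the highest count at least 30. These are the thresholds of the study, whose minimum count of 30 was taken here as a limit on the highest count. This rule called 12 genes higher after the mimic, 0.14% of those tested, and 2 lower, 0.0233%. None of the 17 hypothalamic markers looked for could be matched to an identifier, so the tissue label could not be checked against them.

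SCIN was higher in every mimic library than in any naïve library. Its levels were 13.4, 8.09, 14.3, 17.3 and 15.0 CPM in mimic libraries 2, 4, 6, 9 and 10, against 4.16, 6.14, 5.34, 7.51 and 5.07 CPM in naïve libraries 2, 3, 4, 6 and 7. The 2 groups did not overlap, with mimic library 4 closest to the naïve range. SCIN averaged 13.6 ± 3.42 CPM after the mimic and 5.64 ± 1.26 CPM in naïve chicks (SD, n = 5 each), a ratio of means of 2.42. The fitted log2 fold change was 1.26 (standard error 0.24, 95% interval 0.75 to 1.77). The interval takes no account of the choice of SCIN on this contrast and is not read as a test. In bulk tissue a larger number of cells that hold a transcript and more of that transcript per cell cannot be told apart.

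Over all tested genes, 94 had every mimic library above every naïve library, 1.09%, and 44 had every mimic library below, 0.513%. SCIN is one of the 94, and ARPC1B is not. Neither gene was among the 12 that edgeR called higher with all libraries. SCIN met the same thresholds with DESeq2 at the study's settings and with edgeR without mimic library 4, and ARPC1B met them in none of the 17 alternatives at an adjusted p of 0.05. Since the same contrast chose both genes, nothing is read from these counts about them.

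SCIN rested on few molecules. It had 48, 31, 63, 75 and 58 counts in mimic libraries 2, 4, 6, 9 and 10, 275 in all, and 23, 35, 20, 39 and 10 counts in naïve libraries 2, 3, 4, 6 and 7, 127 in all. The 10 counts of naïve library 7 carry an exact 95% Poisson interval of 4.80 to 18.4, which covers counting error only. The levels varied by 25.1% of the mean among mimic libraries and by 22.3% among naïve libraries, where counting alone would give 13.6% in mimic and 21.7% in naïve libraries. Nearly all the spread among naïve libraries was thus of the size that counting gives, and the spread among mimic libraries was larger than that.

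ARPC1B was higher in 4 of 5 mimic libraries than in any naïve library. Its levels were 22.7, 10.7, 18.1, 18.5 and 19.4 CPM in mimic libraries 2, 4, 6, 9 and 10, against 9.04, 8.59, 11.5, 11.6 and 12.2 CPM in naïve libraries 2, 3, 4, 6 and 7. Mimic library 4 lay within the naïve range, below naïve libraries 4, 6 and 7, and the other 4 mimic libraries lay above every naïve library. ARPC1B averaged 17.9 ± 4.40 CPM after the mimic and 10.6 ± 1.63 CPM in naïve chicks (SD, n = 5 each), a ratio of means of 1.69. The fitted log2 fold change was 0.77 (standard error 0.21, 95% interval 0.33 to 1.22). As for SCIN, the interval is not read as a test. Without mimic library 4 the lowest mimic level was 18.1 CPM, against a highest naïve level of 12.2 CPM. Leaving out the only mimic library within the naïve range separates the groups by construction, so nothing is read from this gap.

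**Figure D1:**
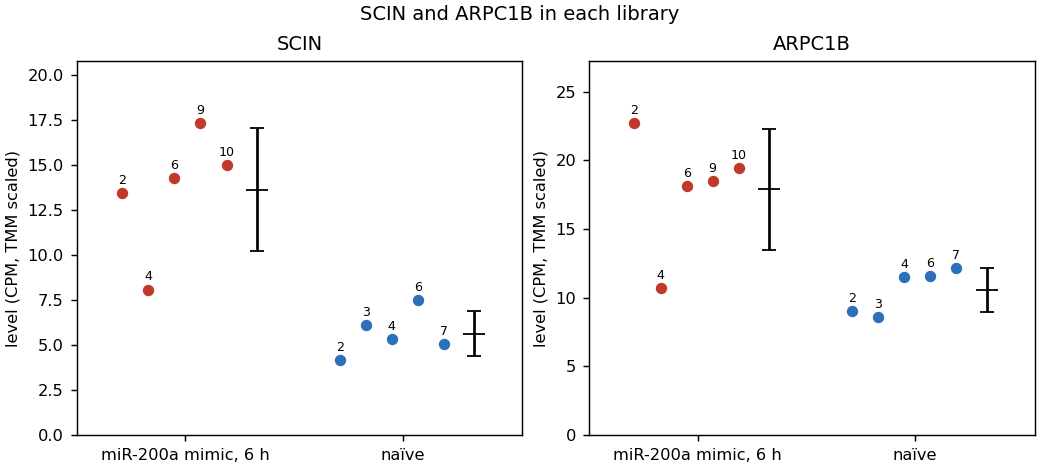
Levels of SCIN (left) and ARPC1B (right) in CPM with TMM scaling, with 1 numbered point per library, mimic libraries left of naïve libraries, and black marks for the mean ± SD (n = 5 each). For SCIN the lowest mimic library, library 4 at 8.09 CPM, lies above the highest naïve library at 7.51 CPM, and for ARPC1B the same library, at 10.7 CPM, lies inside the naïve range.

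ARPC1B was counted in 81, 41, 80, 80 and 75 molecules in mimic libraries 2, 4, 6, 9 and 10, 357 in all, and in 50, 49, 43, 60 and 24 molecules in naïve libraries 2, 3, 4, 6 and 7, 226 in all. Its levels varied by 24.6% of the mean among mimic libraries and by 15.4% among naïve libraries, where counting alone would give 11.9% in mimic and 15.8% in naïve libraries. As for SCIN, the naïve libraries spread about as much as counting gives. The biological coefficient of variation fitted to each gene was 23.0% for SCIN and 21.0% for ARPC1B. The value shared by all genes was 21.2%, and the median over genes was 19.4%. The fit draws each gene toward the trend of all genes, so nothing is read from this nearness.

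In the order of all 8585 fitted log2 fold changes, from the highest in the mimic group down, SCIN stood at place 29 and ARPC1B at place 98. The median of all genes was close to 0. It was −0.0042 with TMM scaling and −0.0644 with library totals only, the largest shift of the 4 scalings tried. Under each of these scalings the number of mimic libraries above the highest naïve library was 5 for SCIN and 4 for ARPC1B.

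Leaving out single libraries moved the fitted values only modestly. The SCIN log2 fold change lay between 1.15 without naïve library 2 and 1.40 without mimic library 4, and the ARPC1B value lay between 0.68 without mimic library 2 and 0.91 without mimic library 4. Mimic library 4 was thus the library whose absence raised both values most. Over the other normalizations, filters and tools SCIN ranged over 1.19 to 1.27 and ARPC1B over 0.71 to 0.78.

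**Figure D2:**
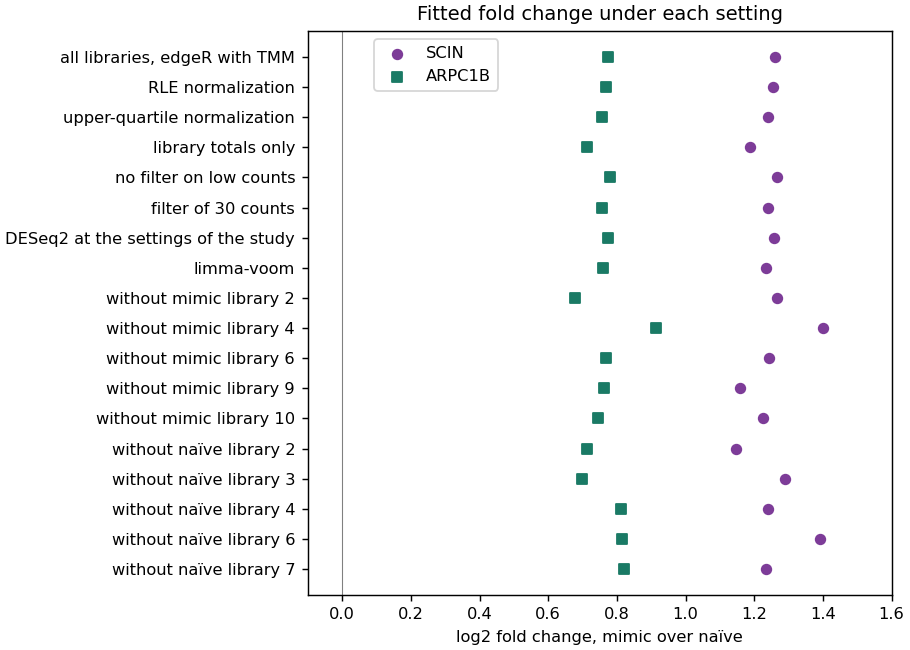
Fitted log2 fold changes of mimic over naïve libraries for SCIN (circles) and ARPC1B (squares), with 1 row per normalization, filter, tool or left-out library and a vertical line at 0. Every SCIN value lies between 1.15 and 1.40 and every ARPC1B value between 0.68 and 0.91.

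Counted against each other within a library, which is free of the scaling between libraries, SCIN had 0.593, 0.756, 0.788, 0.938 and 0.773 counts per ARPC1B count in mimic libraries 2, 4, 6, 9 and 10, against 0.460, 0.714, 0.465, 0.650 and 0.417 in naïve libraries 2, 3, 4, 6 and 7. The ratio averaged 0.769 ± 0.123 after the mimic and 0.541 ± 0.132 in naïve chicks (SD, n = 5 each). It lay above every naïve library in 4 of 5 mimic libraries, all but library 2. Both genes were chosen on this contrast, so the difference was not tested.

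Within groups the 2 genes can be compared free of the contrast that chose them, by taking each library's log2 CPM relative to its group mean. Over the 10 libraries the Pearson correlation of these deviations was 0.66 (exact two-sided permutation within groups, p = 0.0986) and the Spearman correlation was 0.27 (exact permutation p = 0.471). This was the only relation tested. It rested on mimic library 4, which lay 0.68 log2 units under its group mean for SCIN and also 0.68 for ARPC1B. Without that library Pearson's r was 0.07 (exact permutation p = 0.877), and without the 2 libraries farthest from the SCIN median, mimic 4 and naïve 2, it was −0.33 (exact permutation p = 0.509). A shared variation of the 2 genes between libraries of a group was therefore not detectable.

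**Figure D3:**
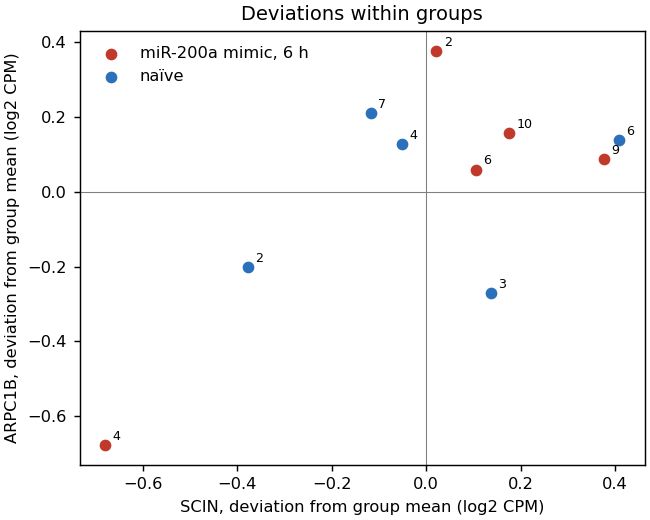
Deviation of each library from its group mean in log2 CPM, SCIN on the horizontal axis and ARPC1B on the vertical axis, with 1 numbered point per library (5 mimic, 5 naïve) and grey lines at 0. Mimic library 4 stands alone at the lower left, at −0.68 on both axes. With the mimic mean taken anew without that library, the other 9 libraries had a Pearson r of 0.07.

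The other actin genes could be followed only in small part. Of 143 symbols in 11 lists of actin remodeling, covering Arp2/3 subunits, the gelsolin family, formins, nucleation-promoting factors and others, 141 were not the 2 genes above, and 2 of these could be paired with an identifier in the counts. Both were named through the study's table of genes nearest sperm differentially methylated regions, which was not drawn from these libraries. They are ARPC5, a further subunit of the Arp2/3 complex, and FMNL1, a formin that extends unbranched filaments. No other Arp2/3 subunit and no other gelsolin family member could be followed.

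Neither ARPC5 nor FMNL1 was called in either direction. edgeR, DESeq2 and limma-voom each called 0 of the 2, and 0 had an unadjusted p under 0.05 (0.875 for ARPC5 and 0.169 for FMNL1, edgeR). This count stands beside 0.14% of all tested genes called higher and 0.0233% called lower.

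ARPC5 (ENSGALG00000020927) had 122, 100, 107, 108 and 92.7 CPM in mimic libraries 2, 4, 6, 9 and 10, against 89.5, 102, 111, 89.3 and 150 CPM in naïve libraries 2, 3, 4, 6 and 7. The groups overlapped, and naïve library 7 was the highest of all. ARPC5 averaged 106 ± 10.8 CPM after the mimic and 108 ± 24.8 CPM in naïve chicks (SD, n = 5 each). The log2 fold change was −0.02 (standard error 0.14, 95% interval −0.33 to 0.28, edgeR adjusted p = 0.983). It ranged from −0.09 to 0.12 over 17 alternatives, and it was highest without naïve library 7.

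FMNL1 (ENSGALG00000032658) had 30.5, 30.8, 35.8, 37.2 and 42.2 CPM in mimic libraries 2, 4, 6, 9 and 10, against 37.8, 33.3, 36.3, 40.2 and 71.5 CPM in naïve libraries 2, 3, 4, 6 and 7. Naïve library 7 stood far above the others, and the remaining libraries of both groups overlapped. FMNL1 averaged 35.3 ± 4.87 CPM after the mimic and 43.8 ± 15.7 CPM in naïve chicks (SD, n = 5 each). The log2 fold change was −0.29 (standard error 0.20, 95% interval −0.71 to 0.14, edgeR adjusted p = 0.795) and −0.06 without naïve library 7 (edgeR adjusted p = 0.928).

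ARPC1B and ARPC5 sit in the same complex, and their ratio within a library does not depend on the scaling between libraries. There were 18.6, 10.6, 17.0, 17.1 and 20.9 ARPC1B counts per 100 ARPC5 counts in mimic libraries 2, 4, 6, 9 and 10, against 10.1, 8.39, 10.4, 12.9 and 8.14 in naïve libraries 2, 3, 4, 6 and 7. The mean was 16.9 ± 3.82 after the mimic and 9.98 ± 1.92 in naïve chicks (SD, n = 5 each). Mimic library 4 again fell within the naïve range, and the other 4 mimic libraries lay above it. The difference was not tested because ARPC1B was chosen on this contrast.

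**Figure D4:**
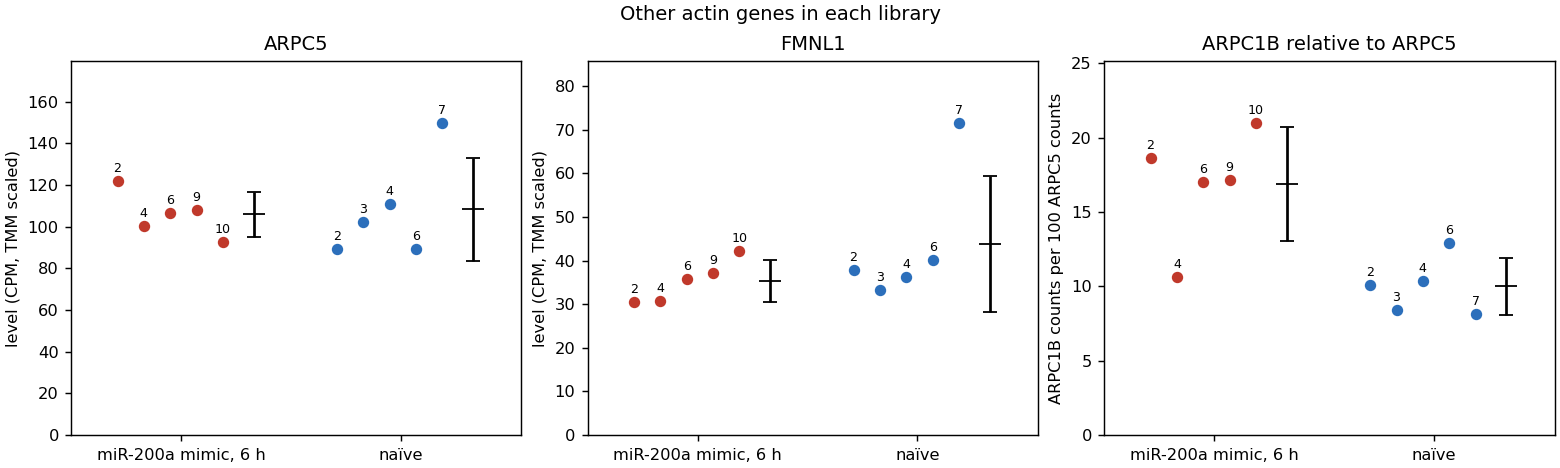
ARPC5 and FMNL1 in CPM with TMM scaling (left and middle) and ARPC1B counts per 100 ARPC5 counts (right), with 1 numbered point per library, mimic libraries left of naïve libraries, and black marks for the mean ± SD (n = 5 each). ARPC5 and FMNL1 overlap between groups with naïve library 7 highest, whereas 4 of 5 mimic libraries exceed every naïve library in the ratio, with means of 16.9 in mimic and 9.98 in naïve libraries.

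The study's axon guidance list, chosen on these libraries, holds ARPC1B with 4 other genes. These are AP2S1, a subunit of the clathrin adaptor, HSPA8, a constitutive chaperone, and the ribosomal protein genes RPL30 and RPL35. Their log2 fold changes ran between 0.34 and 0.55, with adjusted p between 0.254 and 0.428 (edgeR). All 4 had higher means after the mimic, and 0 were called, beside 0.14% of all tested genes called higher. Their fitted fold changes of 1.26 to 1.46 lay under the 1.5 that a call needs. All 5 mimic libraries lay above every naïve library for AP2S1, HSPA8 and RPL35, as for 1.09% of all tested genes, and 4 of 5 did for RPL30. The study used another tool, DESeq2, and a looser adjusted p of 0.1 for its supplementary lists of higher and lower genes. The 4 edgeR values exceed 0.1 as well, so the threshold alone does not account for the difference. This count is therefore not a test of the study's list. Because the list was chosen on the same libraries, its direction is not independent evidence.

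Markers of microglia, the resident phagocytes of the brain, were higher in sum in the mimic libraries, though not each of them. Of 19 microglial symbols, 6 had an identifier, namely SPI1, C1QA, C1QB, C1QC, P2RY13 and TREM2, and the study chose all 6 on these libraries. Their summed level was 205, 159, 222, 158 and 175 CPM in mimic libraries 2, 4, 6, 9 and 10, against 81.5, 80.5, 117, 108 and 116 CPM in naïve libraries 2, 3, 4, 6 and 7, with no overlap. The mean was 184 ± 28.3 CPM after the mimic and 101 ± 18.2 CPM in naïve chicks (SD, n = 5 each), a ratio of 1.83. C1QA, C1QB and C1QC made up most of this sum. Their means were 42.0, 46.7 and 49.6 CPM after the mimic and 20.1, 20.0 and 24.3 CPM in naïve chicks. The complement genes C1QB and C1QC were called higher, beside 0.14% of all tested genes, and 5 of the 6 had a higher mean after the mimic. Since the study chose all 6 on these libraries, nothing is read from these counts about microglia. TREM2, a microglial surface receptor, ran the other way, with 8.12, 9.39, 6.80, 13.2 and 11.1 CPM in mimic libraries 2, 4, 6, 9 and 10, against 13.7, 13.8, 23.2, 21.8 and 15.2 CPM in naïve libraries 2, 3, 4, 6 and 7. Every mimic library was below every naïve library for TREM2, as for 0.513% of all tested genes. TREM2 was not called (log2 fold change −0.85, edgeR adjusted p = 0.32).

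Both actin genes were also set against these markers within each library, which removes library size. ARPC1B had 11.1, 6.71, 8.17, 11.7 and 11.1 counts per 100 microglial counts in mimic libraries 2, 4, 6, 9 and 10, against 11.1, 10.7, 9.84, 10.7 and 10.5 in naïve libraries 2, 3, 4, 6 and 7, with means of 9.74 ± 2.18 after the mimic and 10.6 ± 0.454 in naïve chicks (SD, n = 5 each). The groups overlapped, and mimic libraries 4 and 6 were the lowest. SCIN had 6.57, 5.07, 6.43, 10.9 and 8.57 counts per 100 microglial counts in mimic libraries 2, 4, 6, 9 and 10, against 5.10, 7.62, 4.58, 6.93 and 4.37 in naïve libraries 2, 3, 4, 6 and 7, with means of 7.52 ± 2.29 after the mimic and 5.72 ± 1.47 in naïve chicks. Here 2 of 5 mimic libraries, 9 and 10, lay above every naïve library. Both actin genes and all 6 markers were chosen on this contrast, so neither ratio was tested and nothing is read from them.

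Within groups, the deviations of the summed microglial level had a Pearson correlation of 0.66 with those of ARPC1B and of 0.23 with those of SCIN over the 10 libraries, which share their depth and scaling. Among all 8584 other tested genes, 749 had a correlation of 0.6 or more with ARPC1B and 415 with SCIN. How far the microglial correlations rest on mimic library 4 was not tested. With the library total the correlation was −0.32 for ARPC1B and 0.21 for SCIN. The part of microglial transcripts in the levels of SCIN and ARPC1B was not tested.

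**Figure D5:**
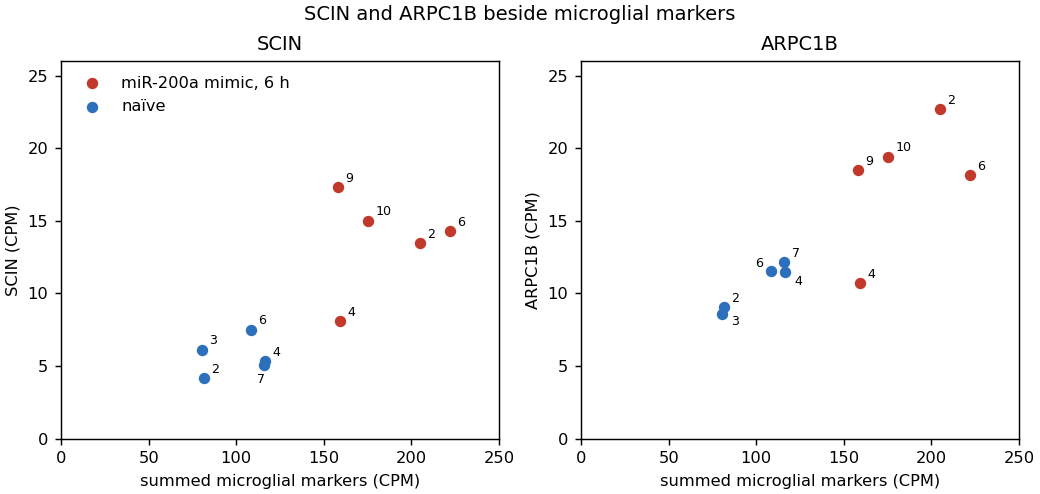
SCIN (left) and ARPC1B (right) in CPM against the summed CPM of 6 microglial markers, with 1 numbered point per library, mimic libraries in red and naïve libraries in blue. The groups are apart on the horizontal axis (158 to 222 CPM in mimic libraries, 80.5 to 117 CPM in naïve libraries), and mimic library 4 is low for both genes at a marker level close to that of mimic library 9.

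Other cell types were covered more thinly. The neuronal markers RBFOX3 and SCG3 together had 240 to 306 CPM in the 5 mimic libraries and 311 to 338 CPM in the 5 naïve libraries, so that in this sum of 2 of 11 listed symbols every mimic library lay below every naïve library. Taken singly both genes overlapped between groups, and neither was called, with log2 fold changes of −0.45 for RBFOX3 and −0.10 for SCG3 (edgeR adjusted p = 0.612 and 0.894). CSPG5 was listed here with the oligodendrocyte markers, as the only 1 of 8 symbols with an identifier. It had 31.1 to 53.1 CPM in mimic libraries and 58.4 to 66.9 CPM in naïve libraries, without overlap. IL2RG was listed here with the lymphocyte markers, as the only 1 of 9 symbols with an identifier. It had 9.92 to 25.6 CPM in mimic libraries and 6.31 to 12.7 CPM in naïve libraries. For IL2RG 4 of 5 mimic libraries, all but library 4, lay above every naïve library. Neither CSPG5 nor IL2RG was called (edgeR adjusted p = 0.32 and 0.229). The study lists CSPG5 among the genes lower and IL2RG among those higher after the mimic, so both were chosen on these libraries. Over all tested genes, 0.513% had every mimic library below every naïve library.

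Of 8 symbols listed here with the choroid plexus, 2 had an identifier, FOLR1 and SLC6A13, and neither passed the filter on low counts. Both were nearly absent from the mimic libraries and high in different naïve libraries. Which tissue either gene marked in those libraries was not tested. The study lists FOLR1 among the genes lower after the mimic, so it was chosen on these libraries. FOLR1 had 0 or 1 count in each mimic library, against 4, 1, 2, 2 and 53 counts in naïve libraries 2, 3, 4, 6 and 7. SLC6A13 likewise had 0 or 1 count in each mimic library, against 1, 75, 0, 68 and 2 counts in naïve libraries 2, 3, 4, 6 and 7. Naïve library 7 thus stood apart for FOLR1, and naïve libraries 3 and 6 for SLC6A13. With naïve libraries 3, 6 and 7 left out in turn, the SCIN log2 fold change was 1.29, 1.39 and 1.24. That of ARPC1B was 0.70, 0.82 and 0.82. No listed marker of erythrocytes, thrombocytes, endothelium, fibroblasts, ependyma or astrocytes could be paired with an identifier, and the part of any of these cells in the SCIN and ARPC1B levels was not tested.

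The genes whose deviations within groups were most like those of SCIN and ARPC1B were looked for among the 120 other tested genes with a symbol, most of which the study chose on these libraries. For SCIN they were TGM2, a transglutaminase (Pearson r = 0.76), RAMP2, a partner of the calcitonin receptor family (0.71), CRLF3 (0.69), ARPC1B (0.66) and TARS2, a mitochondrial threonyl-tRNA synthetase (0.58). Their order did not follow the contrast, as RAMP2 and TARS2 had lower levels after the mimic, with log2 fold changes of −0.53 and −1.29 (edgeR adjusted p = 0.367 and 0.325). For ARPC1B they were GPX1, a glutathione peroxidase (0.88), PADI3, a peptidylarginine deiminase (0.86), IL2RG, a cytokine receptor chain (0.82), TGM2 (0.77) and SPI1, a transcription factor of myeloid cells (0.77).

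These correlations are over 10 libraries, mimic library 4 among them, and are given as a description. That library was the lowest of its group for both SCIN and ARPC1B. Without it the correlation between these 2 genes fell from 0.66 to 0.07. The correlations and places of the other genes were not computed without it. How far they rest on mimic library 4 was therefore not tested. Among all 8584 other tested genes, 415 had a correlation of 0.6 or more with SCIN and 749 with ARPC1B, and the highest were 0.93 for SCIN and 0.98 for ARPC1B. TGM2 stood at place 88 for SCIN, and GPX1 at place 37 for ARPC1B. ARPC1B stood at place 261 for SCIN, and SCIN at place 550 for ARPC1B, so that over all 10 libraries each gene had many closer neighbours than the other.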

How the data were processed

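PO/AH RNA from 5 libraries of miR-200a mimic chicks and 5 of naïve chicks was analysed. The authors trimmed reads with cutadapt, mapped them to galGal5 with STAR, counted them with HTSeq and ran DESeq2, according to the submitters' processing notes, with versions not given in the sources used here. All values come from the deposited UMI counts. The other 10 deposited per-sample columns, normalized counts, were not used, nor were the columns of the authors' own comparison (fold changes and p-values). Groups came from the condition in each column name.

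The software was R 4.3.3, with the packages DESeq2 1.42.0, limma 3.58.1 and edgeR 4.0.16. Genes passing filterByExpr (minimum count 10) were TMM normalized and compared with a two-sided quasi-likelihood test (edgeR, robust option), and p-values were adjusted by the Benjamini-Hochberg method. Deviations within groups were taken on log2 CPM (prior count 2), and the exact test used all 14400 arrangements within groups. Standard errors were the log2 fold change divided by the square root of F. Intervals for counts were exact Poisson (95%). The test was checked on simulated data. No 2 libraries of a group were copies (lowest chi-square per gene 7.69).

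SCIN, ARPC1B and the gene lists were chosen with earlier results of these data known. Named genes were SCIN and ARPC1B, the tested genes of the Arp2/3 complex and gelsolin family, called genes or at most 3 with the smallest p of each other actin list, the 5 named genes most like SCIN and ARPC1B by within-group correlation, and the marker genes that have an identifier. The counts carry identifiers only, and names came from the study's supplementary gene tables (157 symbols, of which 137 were in the counts and 121 were tested). No sequence or coordinate was used here, and a miR-200a seed match was not looked for. Alternatives were other normalizations, filters, thresholds and tools, and leaving out each library.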

Additional observations from a re-analysis of the deposited data

Results flagged for a closer look

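FMNL1 in naïve library 7 had 71.5 CPM, far above the other naïve libraries at 33.3 to 40.2 CPM, with the mimic libraries at 30.5 to 42.2 CPM. Its gap to the nearest library was 0.819 of the whole range of the group, above Dixon's 95% critical value of 0.71 for 5 libraries. Of 22 groups of libraries checked, 1 passed this value, and chance gives about 1 in 20.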

How the results depend on the processing

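The SCIN and ARPC1B log2 fold changes kept their direction in 17 of 17 alternatives each, with leave-one-out ranges of 1.15 to 1.40 and 0.68 to 0.91. With little or no overlap between the groups, these settings could hardly turn the direction, so nothing is read from its being kept. Of all genes, 14 were called (12 higher, 2 lower), and leaving out 1 library gave 8 to 20, with 8 without naïve library 2, 9 without naïve library 4 and 9 without naïve library 6. A filter of 30 counts gave 9 (7 higher, 2 lower) and DESeq2 at the study's settings 41 (36 higher, 5 lower). The cause of these shifts was not tested. Loosening the adjusted p to 0.1 on the same fit gave 29 (27 higher, 2 lower). SCIN was among the genes called with DESeq2, at an adjusted p of 0.1 and without mimic library 4, and not with all libraries at 0.05 by edgeR. ARPC1B met an adjusted p of 0.1, but not 0.05, with DESeq2 and without mimic library 4. Both genes were chosen on this contrast, so these calls are a description only. Of the 2 other actin genes that could be followed, 0 were called in all 19 alternatives, with a leave-one-out range of 0 to 0. With 0.14% of all tested genes called higher and 0.0233% lower, 0 is the likely count for any 2 genes. It says nothing about the listed actin genes that could not be followed. The within-group correlation of SCIN and ARPC1B was 0.66, ranged from 0.07 to 0.76 with 1 library left out, and turned to −0.33 without mimic library 4 and naïve library 2. No paired analysis was possible because replicate numbers in the labels cannot be matched to the numbers of the deposited columns. With 10 to 75 SCIN counts per library, counting error limits each level.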
